A study of Mus musculus with 16 samples.

Results

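The 79 genes described here encode interleukins, tumor necrosis factor (TNF) superfamily ligands and receptors, colony-stimulating factor and interferon receptors, growth factors of the fibroblast, platelet-derived, vascular endothelial and insulin-like families with some of their receptors, bone morphogenetic proteins, activins, and kinases and feedback genes that act below these receptors. They were chosen by gene symbol among the protein-coding genes listed in the study's tables, with Csf1r left out, and are 79 of the 5205 genes listed in all. Liver RNA was sequenced from 16 male C57BL6 mice, 4 in each of 4 groups, after 32 weeks on a low-fat (LF) diet or on the AMLN diet, a feed rich in fat, fructose and cholesterol that is used to bring about steatohepatitis. TSP1F/F mice (WT in the labels) carried a floxed Thbs1 gene, which encodes thrombospondin 1 (TSP1). TSP1ΔPf4 mice (KO in the labels) carried the same floxed gene together with Pf4-Cre, a Cre recombinase under a promoter of megakaryocytes, the cells that shed platelets, and the TSP1F/F mice were their littermates. The design asks how the AMLN diet moved these genes in each genotype and whether the genotypes differed on either diet.

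Each table lists genes whose AMLN and LF values differed within 1 genotype at an unadjusted p under 0.05 in the authors' own test, 2558 genes in TSP1F/F and 3399 in TSP1ΔPf4 mice. The diet tests below therefore repeat the contrast that selected the genes and are not independent evidence of it. Of the 79 genes, 60 were listed for TSP1F/F mice, 38 for TSP1ΔPf4 mice and 19 for both, and a gene outside a table was not analysed here in that genotype. Library totals ran from 18135112 to 26649603 counts in LF-fed TSP1F/F, 18362810 to 39753019 in AMLN-fed TSP1F/F, 17127965 to 20700888 in LF-fed TSP1ΔPf4 and 23221536 to 31363462 in AMLN-fed TSP1ΔPf4 mice. Values are CPM, counts scaled to a common library total, given for mice 1 to 4 of a group in that order, and log2 fold changes are AMLN over LF unless stated otherwise. Thbs1 itself was listed in the TSP1F/F table alone, at 0.313, 1.82, 0.717 and 0.375 CPM on LF and 1.94, 3.23, 13.3 and 10.1 CPM on AMLN, and was not analysed here in TSP1ΔPf4 mice, so it could not be used to check their labels. In GENCODE M21, 37 of the 79 genes share bases with another annotated gene, 4 of them (Il10rb, Il11ra1, Il2rg and Jak3) with a protein-coding gene on the same strand, and without a stated strand setting the counts of all 37 are uncertain to that degree.

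Cytokines of the interleukin and colony-stimulating factor families bind receptor chains that pass the signal through Janus kinases (JAKs) to STAT transcription factors, while interleukin-1 and TNF receptors act through adaptor proteins and kinases on NF-kB, and both routes induce their own inhibitors, among them SOCS proteins, soluble antagonists and A20. Growth factors of the FGF, PDGF and EGF families act on receptor tyrosine kinases, and bone morphogenetic proteins and activins act on receptor serine kinases and SMAD proteins. In liver, hepatocytes secrete most circulating IGF1 and several of its binding proteins, Kupffer cells and recruited macrophages make and receive many of the inflammatory cytokines, and PDGF receptor β marks the stellate cells that lay down collagen.

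The listed markers of immune, matrix-forming and other liver cells are given first, because many of the genes below are made by such cells. A marker is listed only where it passed the authors' diet contrast in that genotype, and the other markers of its cell type are missing. Differences between the diets in the sums below therefore follow in part from that selection. Of 10 markers of macrophages and monocytes, 7 were listed for each genotype, with Lyz2 the most abundant per length, and their summed level was 42.9, 108, 405 and 44.6 CPM on LF and 349, 427, 491 and 1717 CPM on AMLN in TSP1F/F mice. The same sum in TSP1ΔPf4 mice was 43.6, 47.8, 107 and 59.7 CPM on LF and 144, 117, 129.8 and 207 CPM on AMLN. Trem2, Gpnmb and Itgax rose in TSP1F/F mice and Gpnmb rose in TSP1ΔPf4 mice by the test used below. LF-fed TSP1F/F mouse 3 reached 405 CPM, inside the range of the AMLN-fed mice, and AMLN-fed TSP1F/F mouse 4 stood far above the other 3 of its group. Lyz2 alone gave 379 CPM of the sum in LF-fed TSP1F/F mouse 3. In that mouse Trem2, Gpnmb, Itgax, Cd68 and Ccr2 lay below every AMLN-fed TSP1F/F mouse. Kupffer cell markers (4 of 5 listed, Cd5l the most abundant per length) summed to 55.9, 128, 235 and 76.7 CPM on LF and 316, 335, 365 and 797 CPM on AMLN in TSP1F/F mice. Marco, 1 of the 4, went the other way, at 1.04, 1.02, 8.99 and 2.29 CPM on LF and 0.847, 0.359, 0.704 and 0 CPM on AMLN, without overlap and with a log2 fold change of −2.75 (SE 1.03) that edgeR did not call. DESeq2 called 1 of these 4 markers higher and 1 lower, against 285 and 456 of all 2096 genes tested (35.4%). With 2 of 5 listed in TSP1ΔPf4 mice the sum was 36.8, 50.3, 81.3 and 63.2 CPM on LF and 134, 140.5, 122 and 161 CPM on AMLN, and Vsig4 rose. Stellate cell and fibroblast markers (5 of 8 listed, Lum the most abundant per length) summed to 25.8, 43.4, 35.0 and 19.1 CPM on LF and 112, 108, 202 and 245 CPM on AMLN in TSP1F/F mice, where Col3a1 and Col1a2 rose. Their sum in TSP1ΔPf4 mice (3 of 8 listed, led by Col3a1) was 26.4, 20.4, 20.4 and 14.5 CPM on LF and 56.5, 55.8, 101 and 21.6 CPM on AMLN, with AMLN-fed mouse 4 close to the LF-fed mice.

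T cell markers had low CPM on both diets, and in TSP1F/F mice their sum lay higher on AMLN without overlap. Over 3 of 7 markers it was 0.261, 0.161, 0.496 and 0.3002 CPM on LF and 2.94, 3.503, 5.16 and 3.87 CPM on AMLN. Cd8a rose in these mice, from 0, 0, 0.0551 and 0 CPM on LF to 0.756, 1.48, 3.245 and 1.035 CPM on AMLN. Its log2 fold change of 6.55 (SE 1.14) thus rests on an LF level close to 0. Cd3g was the most abundant per length. In TSP1ΔPf4 mice Cd8a was the 1 of 7 listed, at 0.425, 0, 0 and 0 CPM on LF and 0.534, 1.11, 1.88 and 1.12 CPM on AMLN, with 0 counts in LF-fed mice 2, 3 and 4. B cell markers (Cd79b, 1 of 5) measured 1.25, 0.965, 2.48 and 1.09 CPM on LF and 2.06, 1.48, 4.30 and 6.32 CPM on AMLN in TSP1F/F mice. Klrk1, the 1 of 4 markers of natural killer cells listed for TSP1ΔPf4 mice, measured 0.106, 0.725, 0.993 and 0.159 CPM on LF and 1.64, 1.69, 0.478 and 2.28 CPM on AMLN. Neutrophil markers (2 of 6, led by S100a8) summed to 0.157, 1.07, 1.05 and 0.713 CPM on LF and 1.69, 2.20, 1.84 and 9.09 CPM on AMLN in TSP1F/F mice, with Mmp8 at 0 in all LF-fed mice. The platelet marker Pf4 (1 of 5 listed) measured 0, 0.858, 0.551 and 0.113 CPM on LF and 2.21, 4.58, 2.34 and 4.25 CPM on AMLN in TSP1F/F mice. None of the B cell, neutrophil or platelet markers was listed for TSP1ΔPf4 mice and none of the natural killer cell markers for TSP1F/F mice.

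Endothelial markers, led by Stab2, summed to 24.8, 26.6, 9.93 and 25.9 CPM on LF and 44.4, 40.5, 46.5 and 45.7 CPM on AMLN in TSP1F/F mice (3 of 6 listed) and 24.3, 17.0, 20.8 and 19.3 CPM on LF and 29.3, 35.8, 43.8 and 33.7 CPM on AMLN in TSP1ΔPf4 mice (2 of 6 listed). Cholangiocyte markers summed to 48.9, 59.2, 30.8 and 37.8 CPM on LF and 66.3, 51.3, 243 and 125 CPM on AMLN in TSP1F/F mice (3 of 5 listed, led by Spp1). With 2 of 5 listed, Epcam the most abundant per length, they summed to 2.76, 3.04, 2.16 and 3.29 CPM on LF and 3.87, 5.43, 9.12 and 4.00 CPM on AMLN in TSP1ΔPf4 mice. Every AMLN-fed mouse lay above every LF-fed mouse in these sums of selected markers, except for the cholangiocyte sum of TSP1F/F mice, which overlapped. The summed hepatocyte markers lay lower on AMLN, at 4928, 6840, 5383 and 7078 CPM on LF and 3496, 4842, 2215 and 3624 CPM on AMLN for Ttr, the most abundant, and Tat (2 of 6 listed) in TSP1F/F mice. For the 3 of 6 listed in TSP1ΔPf4 mice, led by Apoa1, the sums were 18950, 20640, 29120 and 23990 CPM on LF and 13710, 9263, 11580 and 15370 CPM on AMLN, carried by Apoa1 and Ttr. Hnf4a, the remaining marker, went the other way, at 306, 364, 179.9 and 279 CPM on LF and 404, 524, 462 and 326 CPM on AMLN, with a log2 fold change of 0.60 (SE 0.25) and overlapping groups. The listed markers differ between the genotypes, so sums of different genes are not compared across them. In bulk liver RNA, fewer cells of a type and less RNA per cell cannot be told apart, and the part of these marker shifts in the results below was not tested.

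**Figure D1:**
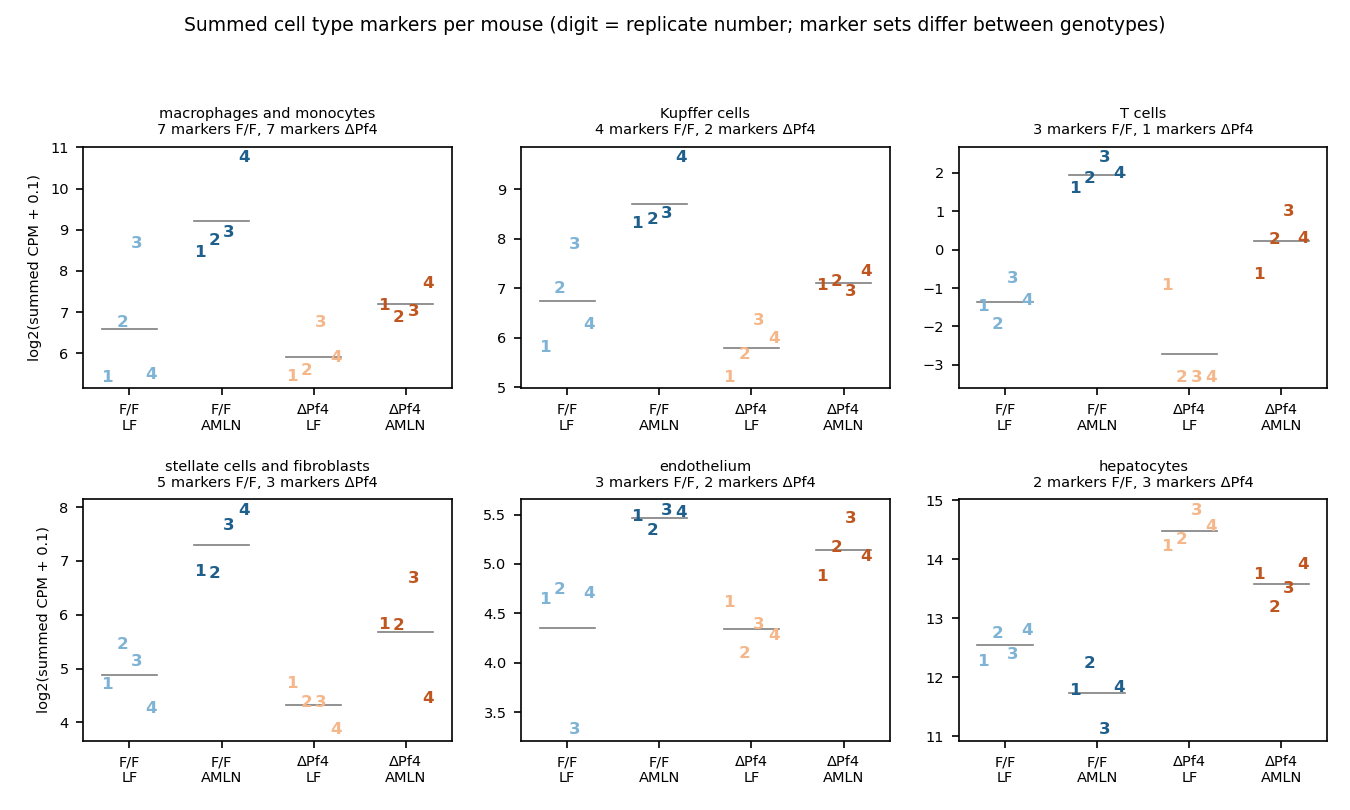
Summed CPM of the listed markers of 6 cell types, on a log axis, in each mouse of the 4 groups, the digit being the mouse number within its group. Macrophage sums on AMLN ran from 349 to 1717 CPM in TSP1F/F mice and from 117 to 207 CPM in TSP1ΔPf4 mice, and the marker genes listed differ between the genotypes for the other lists.

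In TSP1F/F mice the AMLN mean lay above the LF mean for 50 of 60 listed genes, among them 14 of 16 cytokine receptors, 6 of 6 TNF receptors and 5 of 5 interleukin and colony-stimulating factor ligands and antagonists. In TSP1ΔPf4 mice it did so for 26 of 38, among them 6 of 10, 4 of 4 and 2 of 3 of the same groups. In the IGF axis 5 of 7 genes had a higher mean in TSP1F/F mice and 1 of 3 in TSP1ΔPf4 mice. In TSP1F/F mice 48 of the 60 listed genes passed the filter on low counts, and 38 of the 48 had a fitted fold change above 0 and 10 below. By edgeR's quasi-likelihood F test with Benjamini-Hochberg adjustment, 0 of 48 were called higher (background over all genes tested: 2.39%) and 0 were called lower (background 0.0954%). At an unadjusted p under 0.05 there were 32 higher and 9 lower, against 1111 and 569 of all 2096 genes tested. DESeq2 called 7 higher and 8 lower, against 285 and 456 of the 2096. Every AMLN-fed mouse lay above every LF-fed mouse for 20 of the 48 (41.7%, background 36.6%) and below for 7 (14.6%, background 15.6%), shares close to those of the table as a whole. The median log2 fold change was 1.40 over the 48 and 1.15 over all 2096 genes tested.

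In TSP1ΔPf4 mice 35 of the 38 listed genes passed the filter, 24 with a fitted fold change above 0 and 11 below. None of the 35 was called higher (0, background 1.46%) by edgeR, and 1, Il11ra1, was called lower (2.86%, background 1.52%). At an unadjusted p under 0.05 there were 16 higher and 7 lower, against 1045 and 1604 of all 3089 genes tested. DESeq2 called 16 higher and 1 lower, against 1010 and 366 of the 3089. The diets did not overlap, with AMLN higher, for 12 of 35 genes (34.3%, background 20.4%), and with AMLN lower for 3 (8.57%, background 29.1%). Here the table as a whole leaned the other way, with a median log2 fold change of −0.54 over 3089 genes tested against 0.65 over the 35. All 48 and all 35 genes kept the sign of their diet effect in those of the 15 and 14 alternative settings in which they were fitted, TMM and DESeq2 included. TMM changes the scaling alone, while DESeq2 changes the scaling and the test together. The median of all genes was 1.15 under the library totals, 0.97 with TMM and 0.78 with DESeq2 in TSP1F/F mice, and −0.54, −0.21 and −0.20 in TSP1ΔPf4 mice. Calls over all genes numbered 50 higher and 2 lower under the library totals, 56 and 6 with TMM and 285 and 456 with DESeq2 in TSP1F/F mice. In TSP1ΔPf4 mice they numbered 45 higher and 47 lower, 160 and 38, and 1010 and 366 in the same order.

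**Figure D2:**
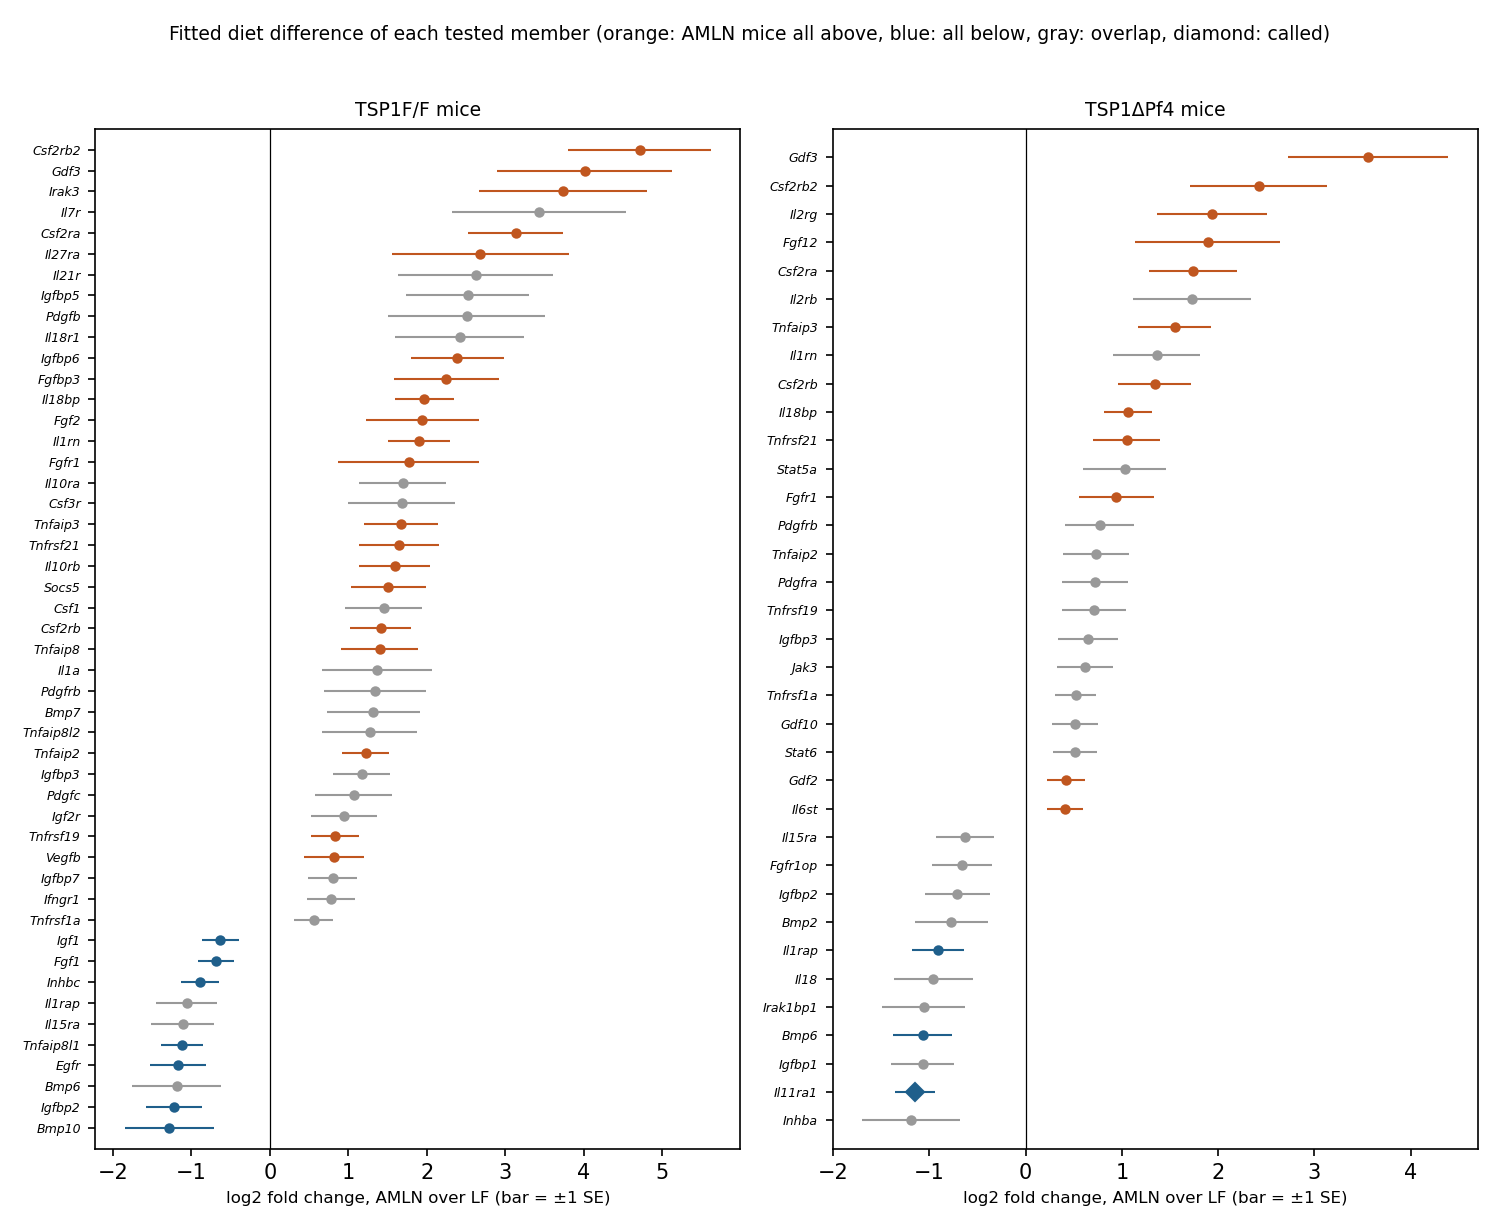
Fitted log2 fold change (AMLN over LF) with 1 standard error for the 48 tested genes of TSP1F/F mice and the 35 of TSP1ΔPf4 mice. Orange marks genes whose AMLN-fed mice all lay above the LF-fed mice, blue those all below and gray overlapping groups, and the diamond marks Il11ra1, the single gene called at an adjusted p under 0.05.

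Among the ligands and antagonists, the inhibitors of interleukin-1 and interleukin-18 had higher means on AMLN in both genotypes. Il18bp (chr7:102014885-102018690 on mm10), whose product binds and neutralizes interleukin-18, measured 6.002, 4.88, 3.31 and 2.96 CPM on LF and 12.9, 11.6, 20 and 22.5 CPM on AMLN in TSP1F/F mice. It measured 5.52, 5.02, 6.42 and 7.27 CPM on LF and 9.21, 11.6, 13.0 and 16.8 CPM on AMLN in TSP1ΔPf4 mice, so the diets did not overlap in either genotype. The log2 fold change was 1.97 (SE 0.37) in TSP1F/F mice (edgeR quasi-likelihood F test, Benjamini-Hochberg adjusted p = 0.0555), higher in 4 of 4 AMLN-fed mice than in any LF-fed mouse. Its TSP1ΔPf4 counterpart was 1.06 (SE 0.25) (edgeR quasi-likelihood F test, Benjamini-Hochberg adjusted p = 0.0691), again with 4 of 4 mice above, and neither passed the threshold.

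Il1rn (chr2:24336853-24351494), the interleukin-1 receptor antagonist, measured 2.50, 2.20, 5.13 and 3.60 CPM on LF and 12.4, 8.35, 17.5 and 11.8 CPM on AMLN in TSP1F/F mice, again without overlap. The TSP1ΔPf4 values were 1.86, 2.95, 1.46 and 7.06 CPM on LF and 11.4, 8.59, 6.66 and 7.62 CPM on AMLN, where LF-fed mouse 4 lay above AMLN-fed mouse 3. Fitted log2 fold changes were 1.90 (SE 0.39) and 1.36 (SE 0.45), with Benjamini-Hochberg adjusted p = 0.0749 (4 of 4 mice above) and 0.133 (3 of 4 above every LF-fed mouse) by edgeR's test. Without LF-fed mouse 4 the TSP1ΔPf4 log2 fold change of Il1rn was 2.03. The agonist Il1a, listed for TSP1F/F mice, ranged over 0.496 to 2.52 CPM on LF and 1.69 to 7.03 CPM on AMLN, and the groups overlapped.

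Il18, the ligand that Il18bp neutralizes, was listed for TSP1ΔPf4 mice and had a lower mean on AMLN, at 7.01, 7.39, 11.5 and 3.29 CPM on LF and 2.47, 3.99, 2.46 and 6.12 CPM on AMLN, with LF-fed mouse 4 inside the AMLN range. The log2 fold change of Il18 was −0.96 (SE 0.41) and was not called (edgeR, Benjamini-Hochberg adjusted p = 0.238). Its span overlaps Tex12 and Bco2 on the other strand. Csf1, the growth factor of macrophages, spanned 1.21 to 5.12 CPM on LF and 4.90 to 13.8 CPM on AMLN in TSP1F/F mice, the LF-fed maximum lying just above the AMLN-fed minimum. Il12b, which encodes the p40 chain shared by interleukin-12 and interleukin-23, had 0 counts in all 4 LF-fed TSP1F/F mice and 37 counts in the AMLN-fed mice, at least 8.98-fold higher against a floor of 3 counts over the group's summed totals. AMLN-fed mouse 4 also had 0 counts of Il12b. Floors and intervals of this kind, here and below, cover counting error alone. They pool the counts of a group and leave out the spread between its mice. The genes described by them did not pass the filter on low counts and were listed through the diet contrast, so the bounds are not tests of the diet.

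The chains of the receptor for granulocyte-macrophage colony-stimulating factor lay higher on AMLN in every mouse of both genotypes. Csf2ra, the ligand-binding chain (chr19:61224402-61228418 in the deposited table), measured 1.25, 0.429, 0.221 and 1.501 CPM on LF and 6.66, 5.52, 10.6 and 7.35 CPM on AMLN in TSP1F/F mice. In TSP1ΔPf4 mice it measured 1.38, 0.725, 1.46 and 1.17 CPM on LF and 1.47, 4.52, 3.57 and 6.24 CPM on AMLN, with AMLN-fed mouse 1 barely above LF-fed mouse 3. The log2 fold changes were 3.13 (SE 0.60) and 1.74 (SE 0.46) (edgeR, Benjamini-Hochberg adjusted p = 0.0602 and 0.0855), with 4 of 4 AMLN-fed mice above the LF-fed mice in each genotype.

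Csf2rb (chr15:78325752-78353847), the β chain shared with the interleukin-3 and interleukin-5 receptors, measured 1.83, 2.95, 4.30 and 4.62 CPM on LF and 8.74, 7.45, 12.2 and 8.06 CPM on AMLN in TSP1F/F mice. Values in TSP1ΔPf4 mice were 1.38, 3.53, 2.80 and 3.55 CPM on LF and 11.0, 7.36, 5.42 and 4.65 CPM on AMLN. The diets did not overlap in either genotype, and the log2 fold changes were 1.41 (SE 0.39) and 1.34 (SE 0.38). Csf2rb2 (chr15:78282507-78305721), a second β chain particular to the mouse that serves interleukin-3, lies 20030 bases from Csf2rb on the opposite strand. It measured 0.209, 0.0536, 0 and 0.263 CPM on LF and 4.42, 1.17, 5.51 and 3.70 CPM on AMLN in TSP1F/F mice. It measured 0, 0.483, 0.642 and 0.159 CPM on LF and 1.17, 2.59, 1.66 and 1.51 CPM on AMLN in TSP1ΔPf4 mice, separate from LF in both genotypes. Fitted log2 fold changes were 4.71 (SE 0.91) and 2.42 (SE 0.71), with edgeR Benjamini-Hochberg adjusted p = 0.0602 and 0.104 and 4 of 4 mice above in each. LF-fed levels of Csf2rb2 rest on 12 and 24 counts, the TSP1F/F log2 fold change was 5.31 without LF-fed mouse 4, and the β chain genes are close copies of each other, so reads could be assigned to either and both values are uncertain to that degree.

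Because Csf2rb2 had the largest fitted fold change of the 48 tested genes in TSP1F/F mice, the 250 bases before its start are shown, from the RefSeq promoter table (GRCm38.p6, the assembly of mm10), chr15:78305722-78305971 on the minus strand and outside the annotated gene. Capitals mark the single match to TTCNNNGAA, the palindromic STAT motif, which begins at −15 from the start site and which STAT5 downstream of this receptor family is known to bind. A match is a description of the letters and not a site shown to be used.
Csf2rb2: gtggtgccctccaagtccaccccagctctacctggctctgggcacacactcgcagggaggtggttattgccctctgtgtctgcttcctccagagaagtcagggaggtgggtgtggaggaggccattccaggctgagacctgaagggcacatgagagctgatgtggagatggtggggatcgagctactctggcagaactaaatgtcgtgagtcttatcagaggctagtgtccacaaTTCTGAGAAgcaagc

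Some receptor chains of the common γ chain family, found on lymphocytes, had few counts on LF. Il2rg (chrX:101264378-101268255), the common γ chain itself, measured 0, 0, 0 and 0.1501 CPM on LF and 1.94, 0.719, 2.59 and 0 CPM on AMLN in TSP1F/F mice, 4 counts against 183, and did not pass the filter on low counts. Its TSP1ΔPf4 values were 1.27, 0.580, 0.175 and 0.212 CPM on LF and 1.67, 2.26, 2.14 and 2.63 CPM on AMLN, without overlap, with a log2 fold change of 1.94 (SE 0.57), or 2.71 without LF-fed mouse 1. Il2rg shares its whole span with a predicted protein-coding gene on the same strand, which makes its counts uncertain. Il2rb, the β chain of the interleukin-2 and interleukin-15 receptors, measured 0.425, 0.193, 0.993 and 0.477 CPM on LF and 0.601, 2.92, 1.31 and 2.11 CPM on AMLN in TSP1ΔPf4 mice and had a log2 fold change of 1.73 (SE 0.61). LF-fed mouse 3 lay above AMLN-fed mouse 1 for this gene.

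Il7r, which T cells need for survival, measured 0.157, 0.697, 0 and 0.0751 CPM on LF and 0.605, 1.53, 1.76 and 6.21 CPM on AMLN in TSP1F/F mice, with a log2 fold change of 3.43 (SE 1.11). The highest value came from AMLN-fed mouse 4, and the lowest AMLN value lay below LF-fed mouse 2. The log2 fold change of Il7r was 2.48 without AMLN-fed mouse 4 and 4.93 without LF-fed mouse 2. Il21r, the interleukin-21 receptor, measured 0, 0.214, 0.551 and 0.188 CPM on LF and 1.24, 0.404, 3.04 and 1.20 CPM on AMLN, with a log2 fold change of 2.62 (SE 0.99) and overlap through AMLN-fed mouse 2. Its log2 fold change was 1.98 without AMLN-fed mouse 3 and 3.40 without LF-fed mouse 3. For Il27ra, the receptor chain for interleukin-27, the values were 0.522, 0.697, 0 and 0 CPM on LF and 0.756, 2.02, 2.57 and 2.45 CPM on AMLN, a separation of the diets that rests on 23 counts on LF, with a log2 fold change of 2.68 (SE 1.13), or 3.49 without LF-fed mouse 2. Summed T cell markers in these mice were at most 0.496 CPM on LF and at least 2.94 CPM on AMLN, and their part in these receptor values was not tested.

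The interleukin-18 receptor chains are neighbours on chromosome 1, 14507 bases apart. Il18r1 (chr1:40465552-40500854), the ligand-binding chain, measured 1.25, 0.268, 0.331 and 0.713 CPM on LF and 2.27, 0.539, 6.82 and 4.19 CPM on AMLN in TSP1F/F mice, with a log2 fold change of 2.42 (SE 0.82) and AMLN-fed mouse 2 inside the LF range. Il18rap, the accessory chain, had 3 counts on LF and 79 on AMLN, a ratio of 19.2 (95% interval 6.33 to 95), and AMLN-fed mouse 2 was again the lowest, at 0. Without AMLN-fed mouse 4 the ratio was 12.5 (95% interval 3.99 to 62.7). The Il18r1 promoter holds the STAT motif at 2 places, shown because it holds more than 1 match, and the 30-base windows come from RefSeq (GRCm38.p6, plus strand), with the motif in capitals. The first, chr1:40465777-40465806, lies in an annotated exon and begins at −219 from the start of the RefSeq entry. The second, chr1:40465844-40465873, lies in an intron and begins at −152.
Il18r1 first match: tcggggttagTTCTGGGAActgtggagctc
Il18r1 second match: agtacaggtcTTCCCAGAActgaaagcttg

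Other receptors listed for TSP1F/F mice had higher means on AMLN. Il10rb, the shared chain of the interleukin-10 and interleukin-22 receptors, spanned 1.67 to 3.59 CPM on LF and 4.18 to 11.0 CPM on AMLN without overlap, though it shares bases with a predicted protein-coding gene on the same strand, which makes its counts uncertain. Il10ra, its ligand-binding partner on leukocytes, spanned 1.10 to 4.96 CPM on LF and 4.24 to 14.3 CPM on AMLN with overlap. Csf3r, the receptor for granulocyte colony-stimulating factor, spanned 0.450 to 1.55 CPM on LF and 0.898 to 5.56 CPM on AMLN and overlapped. Ifngr1, the interferon-γ receptor chain expressed by most cells, spanned 12.2 to 20.3 CPM on LF and 20.1 to 42.3 CPM on AMLN, with AMLN-fed mouse 1 just below LF-fed mouse 2, and did not overlap with TMM. Il17rd, a receptor-like inhibitor of FGF signalling, had 3 counts on LF and 88 on AMLN, a ratio of 21.4 (95% interval 7.07 to 106), with AMLN-fed mouse 4 at 0. Il6st, the gp130 chain of the interleukin-6 and interleukin-11 receptors, was listed for TSP1ΔPf4 mice at 63.4 to 84.2 CPM on LF and 93.9 to 111 CPM on AMLN, without overlap and with a log2 fold change of 0.41 (SE 0.19).

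A smaller set of receptors had lower means on AMLN, led by the gene that passed the test. Il11ra1 (chr4:41699989-41769474), the interleukin-11 receptor that pairs with gp130, measured 41.2, 52.1, 62.5 and 41.9 CPM on LF and 23.8, 18.9, 20.3 and 26.3 CPM on AMLN in TSP1ΔPf4 mice. All 4 AMLN-fed mice lay below all 4 LF-fed mice, and the gene fell, with a log2 fold change of −1.15 (SE 0.21) (edgeR quasi-likelihood F test, Benjamini-Hochberg adjusted p = 0.0449, lower in 4 of 4). The exact two-sided permutation test on log2(CPM + 0.1) gave p = 0.0286, the smallest that 4 against 4 allow. Any gene whose groups do not overlap gets this value, so it restates the separation and is not further support for the call. In the 8 fits that left a mouse out the log2 fold change stayed between −1.23 and −1.01. The call was kept without LF-fed mouse 3 and without AMLN-fed mouse 4 and lost in the other 6, in which the calls over all genes also dropped, from 45 higher and 47 lower to 30 and 31 without LF-fed mouse 1 and to between 1 and 9 higher and 0 lower without LF-fed mouse 2 or 4 or AMLN-fed mouse 1, 2 or 3. Its annotated span overlaps other annotated genes on both strands, and the strand setting of the counting is not given in the sources used here, so the gene assignment of these reads is uncertain.

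Il1rap (chr16:26581704-26730117), the accessory protein through which interleukin-1 and interleukin-33 receptors signal, had the highest per-length level of the interleukin receptor genes in LF-fed TSP1F/F mice, a median of 27.6 FPKM. It measured 228, 366, 516 and 260.4 CPM on LF and 114, 176, 93.3 and 274 CPM on AMLN in TSP1F/F mice, where AMLN-fed mouse 4 lay within the LF range. In the other genotype it measured 246, 254, 332 and 269 CPM on LF and 115, 124, 111 and 237 CPM on AMLN, with AMLN-fed mouse 4 apart from the other 3 and still below every LF-fed mouse. With TMM the diets were separate for Il1rap in TSP1F/F mice and overlapped in TSP1ΔPf4 mice. The log2 fold changes were −1.06 (SE 0.39) and −0.91 (SE 0.27), and without AMLN-fed mouse 4 the TSP1ΔPf4 difference was called. Il15ra (chr2:11705290-11734317), which presents interleukin-15 to neighbouring cells, measured 21.4, 55.6, 91.9 and 38.7 CPM on LF and 18.9, 25.1, 21.3 and 30.8 CPM on AMLN in TSP1F/F mice and had a log2 fold change of −1.11 (SE 0.40). Its TSP1ΔPf4 values were 31.0, 23.7, 48.3 and 30.1 CPM on LF and 14.5, 18.1, 20.3 and 33.0 CPM on AMLN, with a log2 fold change of −0.63 (SE 0.30), and the diets overlapped in both genotypes. Il13ra2, the decoy receptor for interleukin-13, had 55 counts on LF and 13 on AMLN in TSP1ΔPf4 mice, with 0 in 1 mouse of each group, and did not pass the filter.

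**Figure D3:**
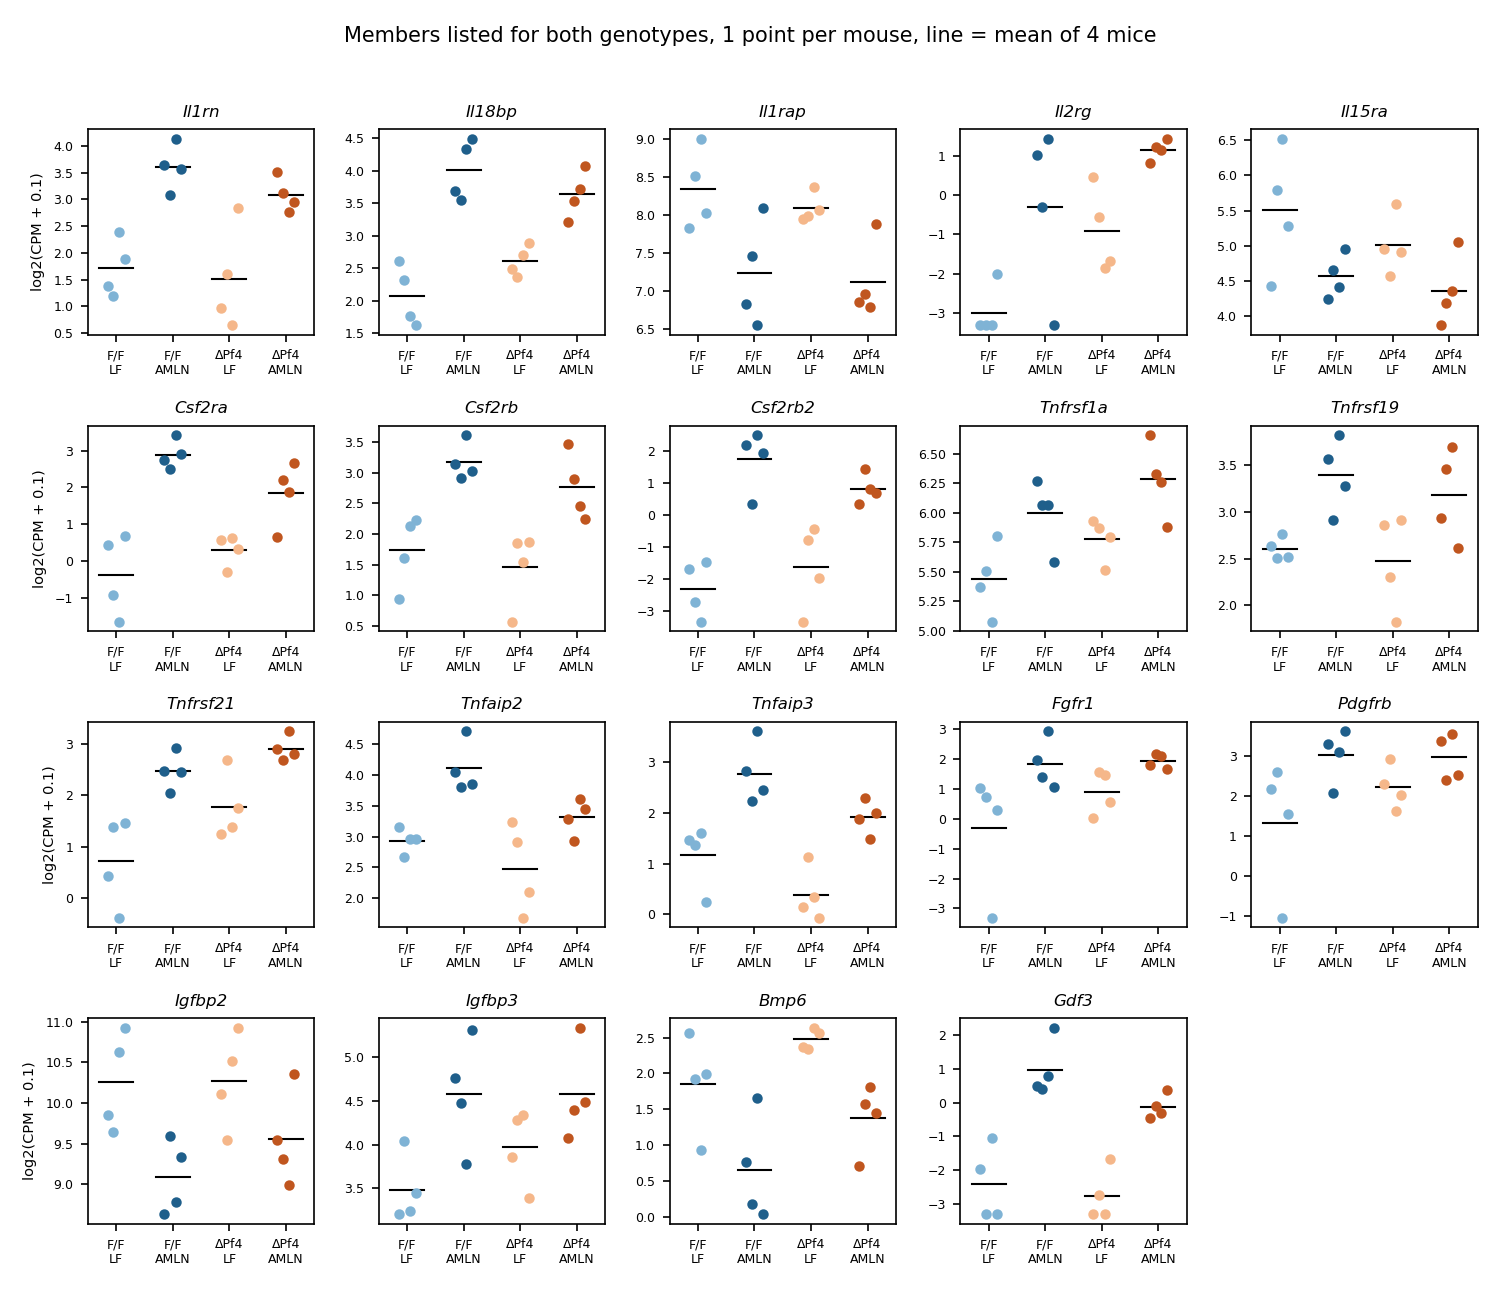
log2(CPM + 0.1) of the 19 genes listed for both genotypes in each of the 16 mice, with a line at the mean of the 4 log2 values of a group. AMLN means lay above LF means in both genotypes for 15 genes and below in both for Il1rap, Il15ra, Igfbp2 and Bmp6.

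Few genes of the signalling machinery itself were listed. Irak3 (IRAK-M), a kinase-like brake on interleukin-1 and Toll-like receptor signalling found in monocytes and macrophages, measured 0, 0, 0.386 and 0.1501 CPM on LF and 1.97, 0.988, 3.29 and 1.03 CPM on AMLN in TSP1F/F mice, without overlap and with a log2 fold change of 3.73 (SE 1.07), 11 counts on LF against 237 on AMLN. Without LF-fed mouse 3 the log2 fold change was 4.90. Socs5, a feedback inhibitor of cytokine and EGF receptor signalling, spanned 0.911 to 4.14 CPM on LF and 5.63 to 8.43 CPM on AMLN in the same mice, also without overlap. In TSP1ΔPf4 mice the listed genes were Jak3, the kinase that binds the common γ chain, at 5.61 to 10.7 CPM on LF and 8.79 to 18.8 CPM on AMLN, Stat5a at 1.58 to 7.43 CPM on LF and 5.81 to 14.3 CPM on AMLN, and Stat6, which carries interleukin-4 and interleukin-13 signals, at 20.4 to 34.1 CPM on LF and 32.8 to 50.5 CPM on AMLN. All 3 had higher AMLN means with overlapping groups, and their log2 fold changes were 0.62 (SE 0.29), 1.03 (SE 0.43) and 0.51 (SE 0.23) in that order. Jak3 overlaps Insl3 on the same strand.

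TNF superfamily ligands were listed for TSP1F/F mice alone and at low counts. Tnfsf9 (4-1BB ligand) and Tnfsf14 (LIGHT), which sit 81734 bases apart on chromosome 17, had 0 counts on LF and 30 and 41 on AMLN, at least 7.28-fold and at least 9.95-fold higher against the floor. The bound for Tnfsf14 was 6.34 without AMLN-fed mouse 2. Tnfsf8 (CD30 ligand) had 3 counts on LF and 74 on AMLN, a ratio of 18 (95% interval 5.91 to 89.1), which was 10.1 (95% interval 3.2 to 51.5) without AMLN-fed mouse 4 and 36.5 (95% interval 6.35 to 1461) without LF-fed mouse 4. For each of the 3 ligands at least 1 AMLN-fed mouse was at or near 0, and none passed the filter.

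TNF receptors covered a wide span of levels. Tnfrsf1a (chr6:125349362-125362484), the main receptor for TNF itself, measured 41.2, 45.3, 33.6 and 55.6 CPM on LF and 77.2, 66.9, 66.8 and 47.6 CPM on AMLN in TSP1F/F mice. The TSP1ΔPf4 mice measured 60.9, 58.5, 45.5 and 55.4 CPM on LF and 101, 80.2, 76.6 and 58.7 CPM on AMLN. Both genotypes gave small log2 fold changes, 0.56 (SE 0.25) and 0.52 (SE 0.21), and AMLN-fed mouse 4 overlapped the LF-fed mice in each. Tnfrsf21 (death receptor 6, chr17:43016555-43089189) measured 1.25, 2.52, 0.662 and 2.66 CPM on LF and 5.48, 4.04, 7.45 and 5.39 CPM on AMLN in TSP1F/F and 2.28, 6.33, 2.51 and 3.29 CPM on LF and 7.34, 6.33, 9.41 and 6.89 CPM on AMLN in TSP1ΔPf4 mice. Neither genotype showed overlap for Tnfrsf21, though the TSP1ΔPf4 groups nearly touched, and the log2 fold changes were 1.65 (SE 0.51) and 1.05 (SE 0.35). Tnfrsf19 (TROY, chr14:60963875-61046490), an orphan receptor of epithelial cells, measured 6.11, 5.57, 6.67 and 5.63 CPM on LF and 11.7, 7.41, 14.0 and 9.53 CPM on AMLN in TSP1F/F mice, without overlap. In TSP1ΔPf4 mice its values were 7.12, 4.83, 3.44 and 7.43 CPM on LF and 7.54, 10.9, 12.8 and 6.03 CPM on AMLN, with overlap, and the log2 fold changes were 0.83 (SE 0.31) and 0.71 (SE 0.33).

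Tnfrsf10b, the mouse receptor for TRAIL, had 0 counts in every LF-fed TSP1F/F mouse and was detected in every AMLN-fed mouse (97 counts), at least 23.5-fold higher, or at least 14.6-fold without AMLN-fed mouse 3, which held 58 of the counts. Tnfrsf4 (OX40), a costimulatory receptor of T cells, had 0 counts on LF and 63 on AMLN, at least 15.3-fold higher, with AMLN-fed mouse 2 at 0. Mouse 3 held 44 of the 63, and without it the bound was 7.1. Tnfrsf23, a decoy receptor for TRAIL, had 3 counts on LF and 168 on AMLN, a ratio of 40.8 (95% interval 13.7 to 200), with AMLN-fed mouse 4 at 0. Tnfrsf23 belongs to a cluster of similar decoy receptor genes, so its counts are uncertain. Tnfrsf9 (4-1BB), another costimulatory receptor, was listed for TSP1ΔPf4 mice with 0 counts on LF and 24 on AMLN, present in all 4 AMLN-fed mice and at least 5.55-fold higher. Its span overlaps Camta1 on the other strand.

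The TNF-induced genes and those of the TNFAIP8 family had higher means on AMLN, with the exception of Tnfaip8l1, a member of that family. Tnfaip3 (chr10:19000910-19015657) encodes A20, a ubiquitin-editing enzyme that shuts down NF-kB signalling, and measured 2.66, 2.47, 2.92 and 1.09 CPM on LF and 6.96, 4.58, 12.1 and 5.34 CPM on AMLN in TSP1F/F mice. It measured 1.01, 2.08, 1.17 and 0.849 CPM on LF and 3.60, 4.81, 2.71 and 3.88 CPM on AMLN in TSP1ΔPf4 mice, so the diets did not overlap in either genotype, and the log2 fold changes were 1.67 (SE 0.47) and 1.55 (SE 0.38) (edgeR, Benjamini-Hochberg adjusted p = 0.204 and 0.0762, 4 of 4 mice above in each). Tnfaip2 (chr12:111442469-111455018), a gene of endothelial and myeloid cells that is switched on by NF-kB, measured 8.82, 6.27, 7.67 and 7.66 CPM on LF and 16.5, 13.9, 26.1 and 14.4 CPM on AMLN in TSP1F/F mice. The TSP1ΔPf4 values were 9.35, 7.39, 3.09 and 4.19 CPM on LF and 9.64, 7.53, 12.1 and 10.8 CPM on AMLN, with overlap, and the log2 fold changes were 1.22 (SE 0.30) and 0.73 (SE 0.34). A long noncoding gene annotated on the opposite strand overlaps Tnfaip2.

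Both promoters hold matches to the NF-kB site, shown because both genes are textbook NF-kB targets, as 30-base windows from RefSeq (GRCm38.p6) with the matched letters in capitals. Tnfaip3 has 2, on the minus strand: chr10:19015516-19015545, annotated as intron and beginning at −125 from the start of the RefSeq entry, and chr10:19015403-19015432, annotated as exon and beginning at −12. Tnfaip2 has 1 on the plus strand, chr12:111442627-111442656, annotated as exon and beginning at −24.
Tnfaip3 first match: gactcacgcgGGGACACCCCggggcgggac
Tnfaip3 second match: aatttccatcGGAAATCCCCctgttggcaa
Tnfaip2 match: gactattttaGGAGGGCCCCtccagggtcg

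Tnfaip6 (TSG-6), a hyaluronan-binding protein of inflamed matrix, had 0 counts on LF and 62 on AMLN in TSP1F/F mice, at least 15-fold higher, most of it from AMLN-fed mouse 4 at 2.34 CPM, without which the bound was 5.5. Tnfaip8, an inhibitor of apoptosis, spanned 1.95 to 2.40 CPM on LF and 3.12 to 11.2 CPM on AMLN in TSP1F/F mice without overlap, and Tnfaip8l2 (TIPE2), a brake on immune cell activation, spanned 1.39 to 3.08 CPM on LF and 2.20 to 11.7 CPM on AMLN with overlap. Both had their highest value in AMLN-fed mouse 4, the mouse with the highest macrophage marker sum. Tnfaip8l1 (TIPE1, chr17:56162477-56173955) lay lower on AMLN, at 39.6, 52.7, 72.0 and 50.1 CPM on LF and 30.6, 27.7, 19.3 and 20.9 CPM on AMLN. The diets did not overlap for Tnfaip8l1, and its log2 fold change was −1.12 (SE 0.27) (edgeR, Benjamini-Hochberg adjusted p = 0.13, lower in 4 of 4 mice).

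Promoters were found in the RefSeq table for 62 of the 79 genes, 80 windows of 300 bases in all, searched on both strands. The motif TTCNNNGAA matched 8 of the 80 (10%), against 8.3% of 32851 promoters, and TGATGNAA, the amino acid response motif, matched 3 (3.75%), against 3.97%. The NF-kB site matched 11 of the 80 (13.8%), against 8.46%. The genes with an NF-kB match were Csf1, Csf3r, Fgf13, Fgfbp3, Igfbp5, Pdgfc, Stat5a, Tnfaip2, Tnfaip3, Tnfaip8l1 and Tnfrsf9, 10 of 11 with a higher mean on AMLN (all but Tnfaip8l1), against 50 of 60 and 26 of 38 of all listed genes in TSP1F/F and TSP1ΔPf4 mice. All 8 genes with a TTCNNNGAA match also had a higher mean on AMLN wherever they were listed. Both tallies pool genes of the separate genotypes.

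Of the FGF, PDGF, VEGF and EGF receptor genes, 7 of 9 listed for TSP1F/F mice and 3 of 3 listed for TSP1ΔPf4 mice had a higher mean on AMLN. Fgfr1 (chr8:25513654-25575718), an FGF receptor of mesenchymal cells, measured 1.93, 1.55, 0 and 1.13 CPM on LF and 3.81, 2.52, 7.45 and 1.96 CPM on AMLN in TSP1F/F mice. In TSP1ΔPf4 mice Fgfr1 measured 0.903, 2.85, 2.63 and 1.38 CPM on LF and 3.37, 4.36, 4.11 and 3.06 CPM on AMLN. The diets did not overlap in either genotype, though with TMM they did in TSP1F/F mice, and the log2 fold changes were 1.77 (SE 0.90) and 0.94 (SE 0.39). Pdgfrb (chr18:61045150-61085061), the receptor through which PDGF drives stellate cells, measured 4.38, 5.95, 0.386 and 2.81 CPM on LF and 9.65, 4.09, 8.43 and 12.1 CPM on AMLN in TSP1F/F mice. Its values in TSP1ΔPf4 mice were 4.78, 7.49, 2.98 and 3.93 CPM on LF and 10.2, 5.18, 11.6 and 5.64 CPM on AMLN. Overlap was present in both, and the log2 fold changes were 1.34 (SE 0.65) and 0.77 (SE 0.36). LF-fed TSP1F/F mouse 3, at the bottom for Fgfr1 and Pdgfrb, also had the lowest endothelial marker sum of its group. Its stellate cell and fibroblast sum was not the lowest, at 35.0 CPM against 25.8, 43.4 and 19.1 CPM in mice 1, 2 and 4. The part of either list in these values was not tested.

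Pdgfb, the platelet and endothelial PDGF chain, measured 0, 0.429, 0.165 and 1.35 CPM on LF and 2.42, 0.943, 4.23 and 3.87 CPM on AMLN in TSP1F/F mice, with a log2 fold change of 2.51 (SE 1.00) and AMLN-fed mouse 2 below LF-fed mouse 4. Without LF-fed mouse 4 the log2 fold change of Pdgfb was 3.82. Pdgfc spanned 2.71 to 8.84 CPM on LF and 6.24 to 18.9 CPM on AMLN in TSP1F/F mice, and Pdgfra, the receptor of fibroblast-like cells, spanned 2.42 to 5.84 CPM on LF and 4.13 to 8.83 CPM on AMLN in TSP1ΔPf4 mice, both overlapping. Fgf2, a heparin-bound mitogen, spanned 0.1501 to 1.501 CPM on LF and 2.38 to 3.77 CPM on AMLN and Fgfbp3, an FGF carrier protein, 0.221 to 1.15 CPM on LF and 2.47 to 2.63 CPM on AMLN, each without overlap in TSP1F/F mice. Vegfb, a VEGF family ligand, spanned 2.87 to 8.46 CPM on LF and 9.26 to 15.8 CPM on AMLN, also without overlap, although with TMM the groups overlapped. Fgf2 shares 56521 bases with a noncoding transcript on the same strand and overlaps Nudt6 and an antisense gene on the other strand.

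The other 2 genes of this group listed for TSP1F/F mice, Egfr and Fgf1, lay lower on AMLN. Egfr (chr11:16752203-16918158), the EGF receptor, measured 254, 139, 270.1 and 200.4 CPM on LF and 112, 138, 91.8 and 43.4 CPM on AMLN, without overlap although AMLN-fed mouse 2 came within 2 CPM of LF-fed mouse 2. Its log2 fold change was −1.17 (SE 0.36) (edgeR, Benjamini-Hochberg adjusted p = 0.244, lower in 4 of 4 mice). Fgf1 spanned 84.1 to 103 CPM on LF and 42.8 to 69.3 CPM on AMLN, again without overlap and with a log2 fold change of −0.69 (SE 0.23). The summed hepatocyte markers Ttr and Tat lay lower on AMLN in the same mice, and their part in these values was not tested.

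Insulin-like growth factor genes included the most abundant transcripts of the set. On the per-length scale (FPKM), Igfbp2 had the highest median level of all listed genes in each group, 680 and 294 FPKM on LF and AMLN in TSP1F/F mice and 696 and 375 FPKM in TSP1ΔPf4 mice. Next in LF-fed TSP1F/F mice came Igf1 at 45.9 FPKM and Igfbp7 at 40.3 FPKM, and in LF-fed TSP1ΔPf4 mice Igfbp1 at 88.9 FPKM. At the other end, 40 of 60 genes in LF-fed TSP1F/F mice and 28 of 60 in AMLN-fed TSP1F/F mice had a median under 1 FPKM. The same held for 18 of 38 and 15 of 38 in TSP1ΔPf4 mice. Many cytokine and TNF family genes were thus measured from few counts, while Igf1 had 36704 counts summed over the 4 LF-fed TSP1F/F mice.

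Igfbp2 (chr1:72824503-72852474), a binding protein secreted by hepatocytes, measured 922, 798, 1588 and 1944 CPM on LF and 396, 772, 439.7 and 648 CPM on AMLN in TSP1F/F mice. In TSP1ΔPf4 mice it measured 1104, 746, 1468 and 1950 CPM on LF and 749, 635, 511 and 1315 CPM on AMLN. The diets were separate in TSP1F/F mice by a small margin and overlapped in TSP1ΔPf4 mice, with log2 fold changes of −1.22 (SE 0.36) and −0.71 (SE 0.34). Igf1 spanned 378 to 519.9 CPM on LF and 239.9 to 366 CPM on AMLN in TSP1F/F mice, without overlap, and its log2 fold change was −0.63 (SE 0.24). Igfbp1, a liver-secreted binding protein that insulin represses, measured 131, 144, 140.2 and 75.5 CPM on LF and 79.0, 50.2, 28.9 and 76.2 CPM on AMLN in TSP1ΔPf4 mice, where the lowest LF value lay below 2 AMLN values. The log2 fold change of Igfbp1 was −1.07 (SE 0.33).

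The listed IGF binding proteins other than Igfbp1 and Igfbp2 had higher means on AMLN. Igfbp3 (chr11:7206086-7213923, 3539 bases from Igfbp1), made in liver by sinusoidal and stellate cells, measured 9.08, 16.3, 9.37 and 10.8 CPM on LF and 27.0, 22.2, 13.6 and 39.6 CPM on AMLN in TSP1F/F mice and 14.3, 19.4, 20.1 and 10.4 CPM on LF and 16.8, 21.01, 40.4 and 22.3 CPM on AMLN in TSP1ΔPf4 mice. Both genotypes overlapped, and the log2 fold changes were 1.17 (SE 0.36) and 0.65 (SE 0.31). Igfbp5 lies 5457 bases from Igfbp2 on the opposite strand and had a log2 fold change of the opposite sign, 2.52 (SE 0.78), with 20.1, 10.1, 2.15 and 11.5 CPM on LF and 43.7, 13.9, 164 and 29.9 CPM on AMLN in TSP1F/F mice. AMLN-fed mouse 3 was far above the others for Igfbp5, and without it the log2 fold change was 1.41. Igfbp6 spanned 1.80 to 3.27 CPM on LF and 3.28 to 26.5 CPM on AMLN, its LF-fed maximum just under its AMLN-fed minimum, a separation lost with TMM, and Igfbp7, a secreted protein of vessels and stroma, spanned 25.2 to 71.5 CPM on LF and 70.0 to 96.1 CPM on AMLN. Igf2r, the receptor that clears IGF2 and sorts lysosomal enzymes, spanned 12.7 to 24.3 CPM on LF and 11.1 to 47.9 CPM on AMLN, with AMLN-fed mouse 4 below every LF-fed mouse. Summed stellate cell and fibroblast markers were highest in AMLN-fed mice 3 and 4 of the TSP1F/F group, and their part in the binding protein values was not tested.

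Gdf3 (chr6:122605403-122610087), a ligand of the TGF-β superfamily that macrophages express, had the largest fitted fold change of the 35 tested genes in TSP1ΔPf4 mice. It measured 0.157, 0, 0.386 and 0 CPM on LF and 1.30, 1.21, 1.64 and 4.57 CPM on AMLN in TSP1F/F mice and 0, 0.0483, 0 and 0.212 CPM on LF and 0.634, 0.822, 0.702 and 1.21 CPM on AMLN in TSP1ΔPf4 mice. Both genotypes were near 0 on LF, with 10 and 5 counts, and present in every mouse on AMLN. The log2 fold changes were 4.01 (SE 1.12) and 3.56 (SE 0.83) (edgeR, Benjamini-Hochberg adjusted p = 0.198 and 0.0661, 4 of 4 mice above in each). With so few counts on LF they moved when a mouse was left out, from 3.36 (without AMLN-fed mouse 4) to 5.34 (without LF-fed mouse 3) in TSP1F/F mice and from 3.18 (without LF-fed mouse 1) to 5.21 (without LF-fed mouse 4) in TSP1ΔPf4 mice. AMLN-fed TSP1F/F mouse 4, the mouse with the highest macrophage marker sum, also had the highest Gdf3 value, and whether the markers account for it was not tested.

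Of the BMP, GDF and activin ligands, 2 of 5 listed for TSP1F/F mice and 4 of 7 listed for TSP1ΔPf4 mice had a higher mean on AMLN, and 3 in each genotype a lower mean. Bmp6 (chr13:38345107-38500302), secreted by sinusoidal endothelium to induce hepcidin in hepatocytes, measured 5.79, 3.70, 1.82 and 3.87 CPM on LF and 1.60, 1.03, 3.04 and 0.926 CPM on AMLN in TSP1F/F mice. In TSP1ΔPf4 mice Bmp6 measured 5.05, 4.98, 6.13 and 5.84 CPM on LF and 1.53, 2.88, 3.41 and 2.63 CPM on AMLN, without overlap. Log2 fold changes were −1.19 (SE 0.57) and −1.07 (SE 0.31), and the TSP1F/F groups overlapped through LF-fed mouse 3 and AMLN-fed mouse 3. The hepcidin gene Hamp measured 579.7, 634, 1252 and 905 CPM on LF and 225, 594, 226 and 475 CPM on AMLN in TSP1F/F mice. In TSP1ΔPf4 mice Hamp measured 476, 482, 1444 and 977 CPM on LF and 88.0, 67.5, 58.9 and 400.3 CPM on AMLN, with AMLN-fed mouse 4 apart and still below the LF-fed mice. The log2 fold changes of Hamp were −1.15 (SE 0.39) and −2.46 (SE 0.63) (edgeR, Benjamini-Hochberg adjusted p = 0.314 and 0.0829), and the AMLN-fed mice lay below every LF-fed mouse in 3 of 4 and 4 of 4 cases.

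Bmp10, which with Bmp9 signals to endothelium, measured 2.19, 2.84, 2.10 and 2.59 CPM on LF and 0.575, 1.26, 0.604 and 1.58 CPM on AMLN in TSP1F/F mice, without overlap and with a log2 fold change of −1.28 (SE 0.57). Gdf2, which encodes BMP9 and lies 3055 bases from Gdf10, was listed for TSP1ΔPf4 mice at 12.0 to 14.5 CPM on LF and 15.4 to 20.8 CPM on AMLN, higher without overlap, and Gdf10 spanned 5.52 to 7.12 CPM on LF and 6.63 to 11.0 CPM on AMLN. Bmp2, the other endothelial inducer of hepcidin, spanned 6.85 to 23.5 CPM on LF and 6.37 to 13.8 CPM on AMLN in TSP1ΔPf4 mice, with overlap and a lower AMLN mean. Bmp7 spanned 0.607 to 0.938 CPM on LF and 0.926 to 2.56 CPM on AMLN in TSP1F/F mice, with AMLN-fed mouse 4 inside the LF range. Gdf11 had 0 counts on LF and 22 on AMLN in TSP1ΔPf4 mice, at least 5.09-fold higher, with AMLN-fed mouse 1 at 0.

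The activin genes had lower means on AMLN. Inhba, the activin βA chain, measured 2.81, 3.62, 9.34 and 1.80 CPM on LF and 1.70, 1.11, 2.01 and 2.88 CPM on AMLN in TSP1ΔPf4 mice, with overlap and a log2 fold change of −1.19 (SE 0.51), which was −0.51 without LF-fed mouse 3. Inhbc, the activin βC chain that is largely restricted to hepatocytes, spanned 53.5 to 78.1 CPM on LF and 25.9 to 40.5 CPM on AMLN in TSP1F/F mice. The diets did not overlap for Inhbc, and its log2 fold change was −0.89 (SE 0.24) (edgeR, Benjamini-Hochberg adjusted p = 0.181, lower in 4 of 4 mice).

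A few genes share a symbol with these families without being secreted factors or receptors. Fgf12 and Fgf13 encode intracellular FGF homologues that bind sodium channels. Fgf12 measured 0.691, 0.387, 0 and 0.106 CPM on LF and 0.801, 1.48, 0.702 and 1.55 CPM on AMLN in TSP1ΔPf4 mice, without overlap and with a log2 fold change of 1.89 (SE 0.75), 23 counts against 118. Without LF-fed mouse 1 the log2 fold change was 2.68. Fgf13 had 0 counts on LF and 34 on AMLN in TSP1F/F mice, at least 8.25-fold higher, with AMLN-fed mouse 2 at 0, and the bound was 5.23 without AMLN-fed mouse 3. Irak1bp1, which encodes a protein that binds IRAK1, measured 2.39, 2.22, 2.69 and 1.33 CPM on LF and 1.64, 0.576, 1.02 and 0.861 CPM on AMLN in TSP1ΔPf4 mice, with a log2 fold change of −1.06 (SE 0.43) and AMLN-fed mouse 1 above LF-fed mouse 4. Fgfr1op, a centrosomal protein gene, spanned 13.3 to 28.3 CPM on LF and 7.71 to 17.7 CPM on AMLN in the same mice, with overlap.

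**Figure D4:**
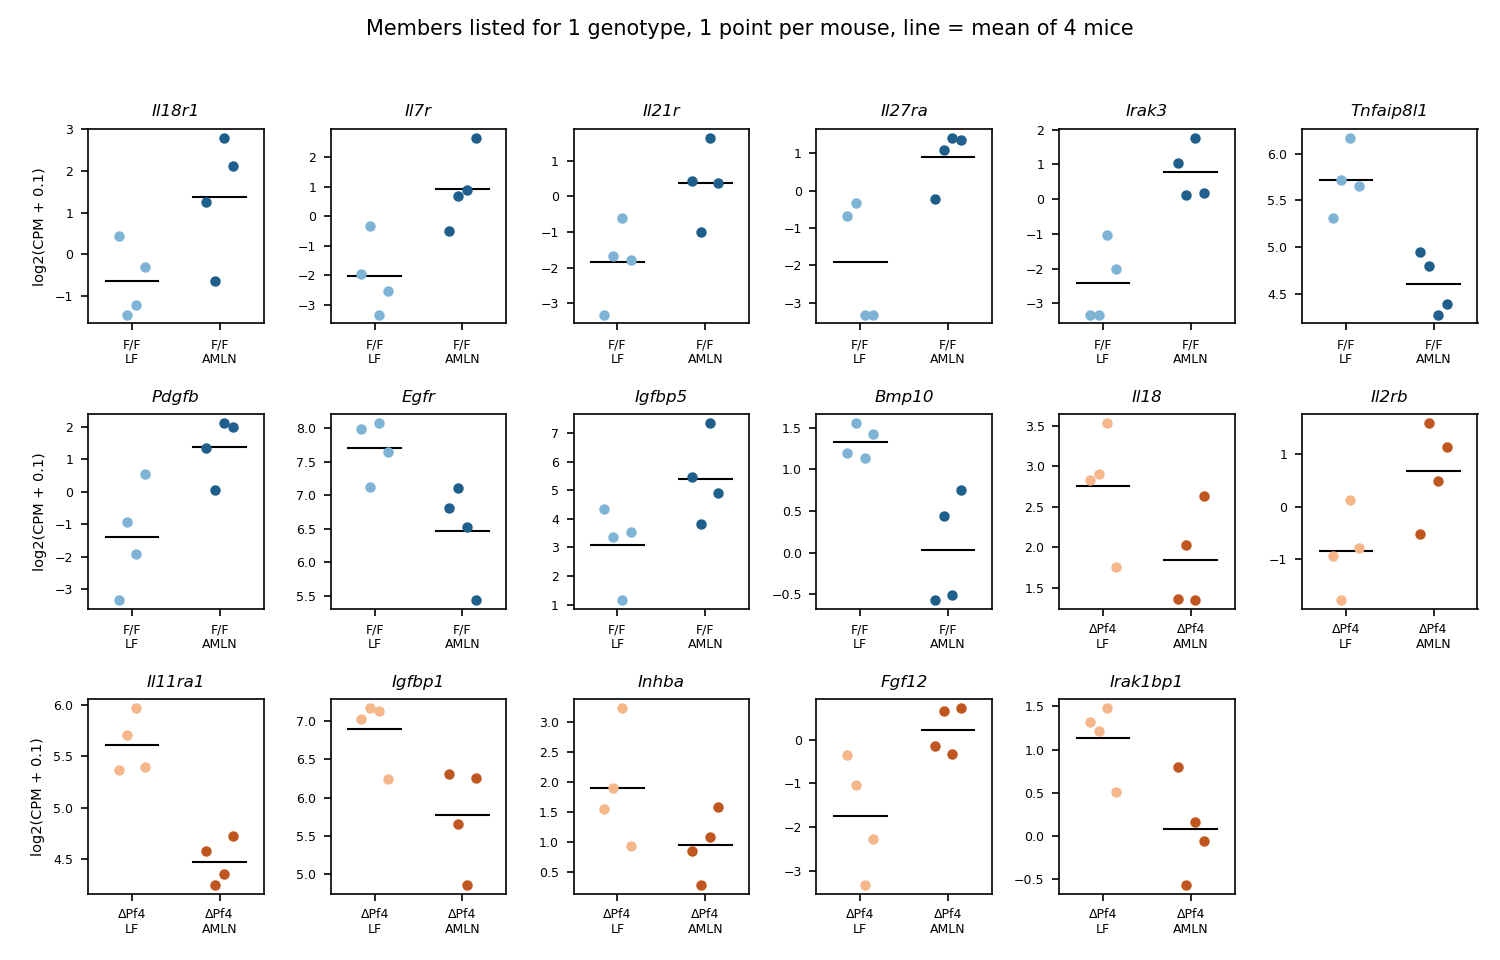
log2(CPM + 0.1) per mouse for the 17 genes listed for 1 genotype whose values are given in full, with a line at the mean of the 4 log2 values of each diet. Il11ra1 (TSP1ΔPf4), Tnfaip8l1, Egfr and Bmp10 (TSP1F/F) lay lower on AMLN in every mouse, and Irak3 and Il27ra (TSP1F/F) and Fgf12 (TSP1ΔPf4) lay higher in every mouse.

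On the AMLN diet the genotypes were compared for the 19 genes listed for both, with fold changes here as TSP1ΔPf4 over TSP1F/F. The lowest was Gdf3 at −1.36 (SE 0.59) and the highest Il2rg at 0.70 (SE 0.81), and 14 of 19 lay below 0, as did 536 of all 733 genes tested. By edgeR's test 0 of 19 were called higher (background 0.546%) and 0 lower (background 8.46%). DESeq2 also called 0, and at an unadjusted p under 0.05 there were 0 higher and 3 lower, against 19 and 166 of the 733, so the 3 do not stand out from the table as a whole. They were Tnfaip2 at −0.83 (SE 0.30), Tnfaip3 at −0.96 (SE 0.39) and Gdf3, with edgeR Benjamini-Hochberg adjusted p = 0.112, 0.146 and 0.169. Every AMLN-fed TSP1ΔPf4 mouse lay below every AMLN-fed TSP1F/F mouse for Tnfaip2 and Gdf3, 2 of 19 (10.5%, background 12.4%), and 0 of 19 lay above without overlap (background 2.59%). With TMM neither of the 2 separated the genotypes, and Tnfrsf21 was the 1 gene of the 19 that did. For Tnfaip3, AMLN-fed TSP1ΔPf4 mouse 2, at 4.81 CPM, lay above AMLN-fed TSP1F/F mouse 2, at 4.58 CPM, and the other 3 lay below all TSP1F/F mice. Without AMLN-fed TSP1F/F mouse 4 the Gdf3 value was −0.72.

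Over all 733 genes tested in this comparison the median was −0.38 under the library totals, against −0.16 for the 19 genes. The median of all genes moved to −0.10 with TMM and −0.03 with DESeq2. Calls over all genes numbered 4 higher and 62 lower under the library totals, 11 and 37 with TMM and 17 and 56 with DESeq2, which also changes the test. With TMM the log2 fold changes of Tnfaip2, Tnfaip3 and Gdf3 were −0.55, −0.68 and −1.04, and 7 of the 19 genes (Csf2rb, Fgfr1, Igfbp3, Il15ra, Il1rap, Pdgfrb and Tnfrsf19) changed sign in at least 1 of 13 alternative settings. Macrophage markers lay lower in TSP1ΔPf4 mice in the same comparison, 7 of 7 in direction, and Gpnmb, Lyz2 and Trem2 fell by the same test, while DESeq2 also called 3 of the 7 lower. Trem2, a receptor of lipid-associated macrophages, had a log2 fold change of −3.06 (SE 0.53) (edgeR, Benjamini-Hochberg adjusted p = 0.00533, lower in 4 of 4 mice). The Kupffer cell marker Cd5l was called lower by edgeR, with a log2 fold change of −1.31 (SE 0.35), and not by DESeq2, which called 0 of the 2 listed, and Vsig4, the other, was at −0.41 (SE 0.30). Of 3 stellate cell and fibroblast markers Col3a1 fell, with Col1a2 at −0.14 (SE 0.46) and Col1a1 at −0.08 (SE 0.72). The part of the macrophage markers in the values of Tnfaip2, Tnfaip3 and Gdf3 was not tested.

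On the LF diet 16 of the 19 genes passed the filter, and the fold changes (TSP1ΔPf4 over TSP1F/F) ran from −0.83 (SE 0.52) for Tnfaip3 to 1.02 (SE 0.54) for Tnfrsf21. EdgeR called 0 higher (background 0%) and 0 lower (background 0%), with 0 in either direction at an unadjusted p under 0.05 (25 and 19 of all 640 genes tested) and 0 by DESeq2, and the smallest Benjamini-Hochberg adjusted p was 0.676. No tested gene separated the genotypes (0 higher, background 3.44%, and 0 lower, background 1.56%). Il2rg, which did not pass the filter, had 43 counts in LF-fed TSP1ΔPf4 mice and 4 in LF-fed TSP1F/F mice, and each TSP1ΔPf4 mouse lay above each TSP1F/F mouse. The difference of the diet effects between the genotypes ran from −2.80 (SE 1.54) for Il2rg to 0.51 (SE 0.53) for Igfbp2. For this interaction edgeR called 0 of 19 higher (background 0%) and 0 lower (background 0.409%), and DESeq2 called 0. At an unadjusted p under 0.05 there were 0, against 16 higher and 94 lower of all 734 genes. Both the 19 genes and this background had been selected for a diet difference in both genotypes. Genes selected in 1 genotype alone were left out, so these counts cannot show that the genotypes responded alike. The smallest adjusted p was 0.357, for Il18bp at −0.91 (SE 0.45), and 15 of 19 differences lay below 0 under the library totals, as did 492 of all 734 genes tested. With TMM and DESeq2 the median over all 734 genes moved from −0.34 to 0.05 and 0.01, and 8 of the 19 signs changed in at least 1 of 20 settings (Bmp6, Csf2rb, Gdf3, Il1rap, Il1rn, Tnfaip3, Tnfrsf19 and Tnfrsf1a).

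Partners of these pathways that the symbol rule did not take gave the surrounding picture. Of 33 TNF, interleukin-1 receptor and NF-kB partners, 8 were listed for TSP1F/F mice, all with a fitted fold change above 0 (median 1.66), with 0 called by edgeR, 0 by DESeq2 and 5 at an unadjusted p under 0.05. They included Nfkb2 at 1.69 (SE 0.49) and Relb at 2.02 (SE 0.83), subunits of the alternative NF-kB pathway, and Ikbke at 1.51 (SE 0.41), a kinase that NF-kB induces. In TSP1ΔPf4 mice 5 of 33 were listed, again all above 0 (median 1.06), with 0 called by edgeR and 5 by DESeq2 and 5 at an unadjusted p under 0.05. They included Nfkb2 at 1.06 (SE 0.32), Relb at 1.72 (SE 0.59) and Birc3, an inhibitor of apoptosis, at 0.80 (SE 0.28). Over all genes tested, 1329 of 2096 lay above 0 in TSP1F/F and 1326 of 3089 in TSP1ΔPf4 mice. At an unadjusted p under 0.05 the tables held 1111 higher and 569 lower genes in TSP1F/F mice and 1045 and 1604 in TSP1ΔPf4 mice, and DESeq2 called 285 and 456 (35.4%) and 1010 and 366 (44.5%).

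Of 18 cytokine receptor and JAK-STAT partners, 6 were listed for TSP1F/F mice and 5 tested, 1 above 0 and 4 below (median −0.94). Those below were Lifr at −0.94 (SE 0.24), Ghr, the growth hormone receptor that drives Igf1 in hepatocytes, at −0.72 (SE 0.27), Lepr at −0.99 (SE 0.46) and Epor at −1.38 (SE 0.63), while Osmr, the oncostatin M receptor, stood at 1.58 (SE 0.58). In TSP1ΔPf4 mice 4 of 18 were listed (median 0.72): Tyk2 at 0.96 (SE 0.34), Bcl3 at 0.84 (SE 0.29) and Ptpn11 at 0.59 (SE 0.24) above 0, and Prlr, the prolactin receptor, at −0.53 (SE 0.23). EdgeR called 0 of them in either genotype. DESeq2 called 2 lower in TSP1F/F and 3 higher in TSP1ΔPf4 mice, and at an unadjusted p under 0.05 there were 1 higher and 3 lower in TSP1F/F and 3 higher and 1 lower in TSP1ΔPf4 mice. Over all genes tested DESeq2 called 285 higher and 456 lower (35.4%) in TSP1F/F and 1010 and 366 (44.5%) in TSP1ΔPf4 mice, and the unadjusted counts were 1111 and 569, and 1045 and 1604.

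Growth factor partners held a gene called in both genotypes, Axl, the receptor tyrosine kinase for Gas6 on macrophages and stellate cells. Axl measured 4.91, 3.22, 3.97 and 5.48 CPM on LF and 28.8, 21.2, 41.7 and 18.8 CPM on AMLN in TSP1F/F mice and 8.82, 9.71, 7.71 and 9.92 CPM on LF and 14.5, 22.7, 20.7 and 21.01 CPM on AMLN in TSP1ΔPf4 mice. It rose in both, with log2 fold changes of 2.65 (SE 0.35) and 1.12 (SE 0.22) (edgeR, Benjamini-Hochberg adjusted p = 0.0138 and 0.0476, higher in 4 of 4 mice each). Of the 28 partners 8 were listed for TSP1F/F mice, and the 7 tested were all above 0 (median 1.62), as were 1329 of all 2096 genes tested. Among the 7 were Gas6 at 1.61 (SE 0.48), Ctgf at 2.48 (SE 0.60) and Erbb2 at 1.60 (SE 0.65). In TSP1ΔPf4 mice 2 were listed, Axl and Kdr, a VEGF receptor of endothelium, at −0.46 (SE 0.21). EdgeR called Axl alone, against a background called higher of 2.39% in TSP1F/F and 1.46% in TSP1ΔPf4 mice. DESeq2 called 2 higher in TSP1F/F and 1 higher in TSP1ΔPf4 mice (background 35.4% and 44.5% in either direction). At an unadjusted p under 0.05 there were 6 higher in TSP1F/F and 1 higher and 1 lower in TSP1ΔPf4 mice. Over all genes these counts were 1111 and 569, and 1045 and 1604. The interaction of diet and genotype for Axl was −1.53 (SE 0.40) (edgeR, Benjamini-Hochberg adjusted p = 0.0558), which did not pass, while DESeq2 called it lower. On LF, Axl lay higher in TSP1ΔPf4 mice, 4 of 4 above every TSP1F/F mouse, with a log2 fold change of 1.04 (SE 0.30) (edgeR, Benjamini-Hochberg adjusted p = 0.554) that was not called.

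Of 33 TGF-β and BMP partners, 7 were listed for each genotype and edgeR called 0. DESeq2 called 1 higher and 1 lower in TSP1F/F and 3 higher and 1 lower in TSP1ΔPf4 mice (285 and 456 of all 2096 genes tested, and 1010 and 366 of all 3089), and at an unadjusted p under 0.05 there were 4 higher and 1 lower in TSP1F/F and 3 higher and 4 lower in TSP1ΔPf4 mice, where the tables held 1111 and 569 and 1045 and 1604. In TSP1F/F mice 6 lay above 0 and 1, Hamp, below (median 1.23), with Tgfb1 at 1.23 (SE 0.38), Tgfb3 at 2.35 (SE 0.69) and their receptor chain Tgfbr2 at 1.57 (SE 0.36). In TSP1ΔPf4 mice 3 lay above 0 and 4 below (median −0.66). The 4 were Hamp and 3 genes known to be induced by BMP signalling, Smad7 at −0.66 (SE 0.21), Id2 at −0.99 (SE 0.42) and Bambi at −0.90 (SE 0.37).

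Single mice weighed on several of these values. AMLN-fed TSP1F/F mouse 3 had the highest value of its group for 29 of the 60 genes and mouse 4 for 20, while mouse 2 had the lowest for 28. LF-fed TSP1F/F mouse 3 had the lowest value of its group for 24 of the 60.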

How the data were processed

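Liver RNA from 16 male mice was sequenced, 4 mice in each of 4 groups. Per the study's methods the reads were aligned with STAR, while the submitters' processing notes name HISAT2; both name mm10, and the counter, the annotation release and the strand setting are not given in the sources used here. The authors deposited raw counts per gene, a normalized signal (the count divided by a DESeq2 size factor per library) and FPKM values for the mice of each genotype. The deposited p-value columns hold the authors' DESeq2 comparison of AMLN with LF, were read only to find how the genes had been selected and over how many genes they had been adjusted, and the fold changes were not used. Each table holds only genes with an unadjusted p under 0.05 in that comparison, so spread estimates rest on selected genes.

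Library totals were computed from count, gene length and FPKM. All genes of a table that passed filterByExpr entered the quasi-likelihood F test of edgeR 4.0.16 (R 4.3.3), with these totals as library sizes and no further scaling. Benjamini-Hochberg adjustment of the diet tests ran over as many genes as the deposited p-values had been adjusted over, 16784 in TSP1F/F and 13927 in TSP1ΔPf4 mice. Genotype and interaction tests used the 752 genes in both tables and were adjusted over the genes tested. Calls needed an adjusted p under 0.05 and a log2 fold change beyond 0.25 in either direction. The test was checked on simulated data. Alternatives were TMM, DESeq2 1.42.0, no filter, a replicate block, the deposited size factors, adjustment over tested genes alone, all 16 mice in 1 fit (genotype comparisons) and each mouse left out. With 4 mice a group, an exact permutation test cannot give a p below 0.0286. Depth, from 17127965 to 39753019 counts a library, limits the precision of genes with few counts, and groups at 0 were compared with a floor of 3 counts over the group; 95% intervals are exact binomial.

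The genes and lists were chosen with earlier results of these data known. Values per mouse are given for the 19 genes in both tables, for called genes, and for the 10 highest and 6 lowest fitted fold changes of each diet comparison. No 2 libraries of a group agreed within sampling noise. GENCODE M21 (mm10) gave the same coordinates for 76 of the 79 genes, all but Csf2ra, Socs5 and Fgf1; promoter sequences are from RefSeq.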

Additional observations from a re-analysis of the deposited data

Results flagged for a closer look

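Single mice lay apart from the other 3 of their group for 3 of 110 gene values and 5 of 36 marker sums looked at, by the ratio of the gap to the nearest mouse over the group's range. About 1 in 20 would be set apart this way by chance. Gdf3 reached 4.574 CPM in AMLN-fed TSP1F/F mouse 4, with the others at 1.212 to 1.635 CPM. The same mouse had the highest macrophage and monocyte marker sum, 1717 CPM against 348.9 to 491.1, the highest Kupffer cell sum, 797.4 CPM against 315.6 to 364.9, and the highest neutrophil sum, 9.094 CPM against 1.694 to 2.2. Whether these marker values bear on Gdf3 was not tested.

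Il1rap measured 236.6 CPM in AMLN-fed TSP1ΔPf4 mouse 4, with the others at 110.9 to 124.5 CPM. Il2rg measured 0.1501 CPM in LF-fed TSP1F/F mouse 4, with the others at 0, which is 4 counts. The T cell marker, Cd8a, measured 0.4249 CPM in LF-fed TSP1ΔPf4 mouse 1, with the others at 0. The endothelial marker sum was 9.925 CPM in LF-fed TSP1F/F mouse 3, with the others at 24.84 to 26.58 CPM, and the same mouse was lowest of its group for 24 of the 60 genes.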

How the results depend on the processing

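The count of called genes depended on the tool and the adjustment. For the diet in TSP1F/F mice the count was 0 with all mice, with TMM, with the deposited size factors and in each of the 8 fits that left out a mouse (0 to 0). It was 15 with DESeq2 (background over all genes tested: 35.4%), 3 with no filter on low counts (Csf2ra, Csf2rb2 and Il18bp, background 3.24%) and 33 (background 53.6%) when adjusted over the tested genes of the table alone, an adjustment that ignores that the table holds selected genes. For the diet in TSP1ΔPf4 mice the count was 1, Il11ra1. It was 4 with TMM (Gdf3, Il11ra1, Il18bp and Tnfaip3, background 6.41%), 17 with DESeq2 (background 44.5%), 19 (background 70.8%) when adjusted over tested genes alone, 1 with no filter and with the deposited size factors, and 0 to 2 when a mouse was left out. Over its 14 alternatives the Benjamini-Hochberg adjusted p of Il11ra1 (edgeR, or DESeq2 for the lowest, lower in 4 of 4 mice with all mice in the fit) ran from 0.000143 to 0.163 and its log2 fold change from −1.23 to −0.80. The counts stayed at 0 under every alternative run for genotype on AMLN, genotype on LF and the interaction. Apart from the adjustment, the cause of these shifts was not tested.

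An alternative chosen after seeing the data left out LF-fed TSP1F/F mouse 3 and AMLN-fed TSP1F/F mouse 4, the mice with the highest macrophage sums of their groups, and the count stayed at 0. Genes whose groups did not overlap numbered 27 for the diet in TSP1F/F, 15 in TSP1ΔPf4, 2 for genotype on AMLN and 0 on LF. With TMM the count for genotype on AMLN was 1, Tnfrsf21, in place of Gdf3 and Tnfaip2. With TMM the diet counts were 26 and 16: in TSP1F/F mice Fgfr1, Igfbp6 and Vegfb left and Il1rap and Ifngr1 came in, and in TSP1ΔPf4 mice Il1rap left and Il1rn and Gdf10 came in. In the alternatives in which they were fitted, 0 of the 48 and 35 tested genes changed the sign of the diet effect. Tnfaip2, Tnfaip3 and Gdf3 also kept theirs between genotypes on AMLN, and on LF Igfbp2, Il1rn and Tnfrsf19 changed sign in at least 1 of 13 settings. Over all genes, leaving out LF-fed mouse 4 of the TSP1F/F group took the calls for the diet from 50 higher and 2 lower to 2 and 0, and leaving out LF-fed mouse 4 of the TSP1ΔPf4 group took them from 45 and 47 to 1 and 0.

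With the replicate number as a block, 0 genes were called for the diet in either genotype, so the call of Il11ra1 was lost, and no other call among these genes changed. Over all genes the block took the diet calls to 10 higher and 0 lower in TSP1F/F and 4 and 0 in TSP1ΔPf4 mice, and the calls for genotype on AMLN from 4 higher and 62 lower to 13 and 103. The labels number the mice 1 to 4 in each group without saying that a number marks a litter or cage. Deviations of same-numbered mice from their group means correlated at 0.283, −0.101, −0.352 and −0.231 over genes in TSP1F/F and −0.063, 0.281, −0.477 and −0.057 in TSP1ΔPf4 mice, and 1 mouse pair of 8 was its own best match, so the numbers were not taken as pairs.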
